A study of Mus musculus with 6 samples.

Results

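Peritubular myoid cells are flattened, smooth-muscle-like cells that wrap each seminiferous tubule of the testis. Their slow contractions move sperm and fluid along the tubule, and they lay down the outer basement membrane together with Sertoli cells. Force is made as in other smooth muscle. Calcium and calmodulin switch on myosin light chain kinase, which phosphorylates the regulatory light chain so that myosin pulls on actin, while tropomyosin, caldesmon and calponin sit on the thin filament and tune that pull. The genes for these proteins are widely used as markers of the cell type and are driven by serum response factor, which binds the CArG box of their promoters with myocardin-family partners.

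The 10 markers followed here were Acta2, Myh11, Tagln, Des, Cnn1, Actg2, Myl9, Cald1, Mylk and Tpm2. They were found on the array as every probe set whose platform gene symbol was exactly one of these names, which gave 23 of 45037 probe sets. Affymetrix arrays read each transcript region with a group of short probes, the probe set, and several may belong to one gene. Each value is a normalized log2 expression value, so that a difference of 1 is a doubling. Probe sets in the upper part of the table by mean level (lowest mean kept 6.02) were tested, which were 15 of the 23, with at least 1 for each of the 10 genes. The other 8 had means from 4.26 to 5.64, and their values are given without a test.

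Whole testes came from 12-week-old mice, 3 homozygous for loss of Alkbh1 (Alkbh1-/-, called KO) and 3 wild type (WT), each on its own Affymetrix array. Alkbh1 encodes a dioxygenase of the AlkB family. The source label gives the background of both groups as C57/BL6 and the genotype label spells it C53/BL6. The labels state neither the part of Alkbh1 deleted nor whether the wild-type mice were littermates. Whole testis also contains blood vessels and the capsule, whose smooth muscle uses the same genes, so the markers were not read from peritubular cells alone. Whether other testis cells, germ cells included, also carry these transcripts was not measured. Fewer cells of a type and less RNA per cell cannot be told apart in such samples.

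Over all tested probe sets the arrays correlated at 0.989 to 0.996, with WT replicates 1 and 2 the lowest pair, where probe sets are not independent replicates. WT replicate 1 had the lowest bright end, with a 95th percentile of 11.42 log2 against 11.52 to 11.55 elsewhere. Alkbh1 probe set 1434660_at read 8.43, 8.65 and 8.72 in WT and 5.76, 5.30 and 5.20 in KO (KO minus WT −3.18 ± 0.15 SE, limma adjusted p = 0.000582). Its second tested probe set, 1438681_at, read 6.97, 6.82 and 7.16 in WT and 6.03, 5.78 and 6.10 in KO, without overlap, and did not pass (−1.02 ± 0.12, limma adjusted p = 0.0697). Germ cell markers (10 of 10 tested), Sertoli cell markers (10 of 10) and the 5 Leydig cell markers found on the array all lay above the level filter. Each of the 10 smooth muscle markers also had a probe set above it. Myocd, the gene of the cofactor myocardin, lay under it, at 5.22 to 5.43 in WT and 5.08 to 5.34 in KO.

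None of the markers passed the test between KO and WT testes. Of the 15 tested probe sets 0 passed an adjusted p of 0.05, against 0.0407% of all 27022 tested, and 0 had an unadjusted p under 0.05, against 5.11% (limma, Benjamini-Hochberg). Differences ran from −0.13 to 0.033 log2 with standard errors of 0.065 to 0.14, and the limma adjusted p from 0.993 to 0.999. The outermost bounds of the 95% intervals were −0.38 and 0.28, so that falls beyond 1.30-fold and rises beyond 1.21-fold lay outside the interval at every tested probe set (each interval for its own probe set, not adjusted for their number). Of the 15, 12 had a lower mean in KO, where 43.6% of all tested probe sets did, but several share a gene. At 1 probe set per gene, the one with the highest mean, 7 of 10 genes were lower and 3 higher, with a median of −0.057 log2 against 0.012 over 13897 genes. After quantile normalization 8 of the 10 genes were lower and the median was −0.072. All tested probe sets moved too, with 50.4% lower and a median of −0.00082, against 43.6% and 0.013 before.

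**Figure D1:**
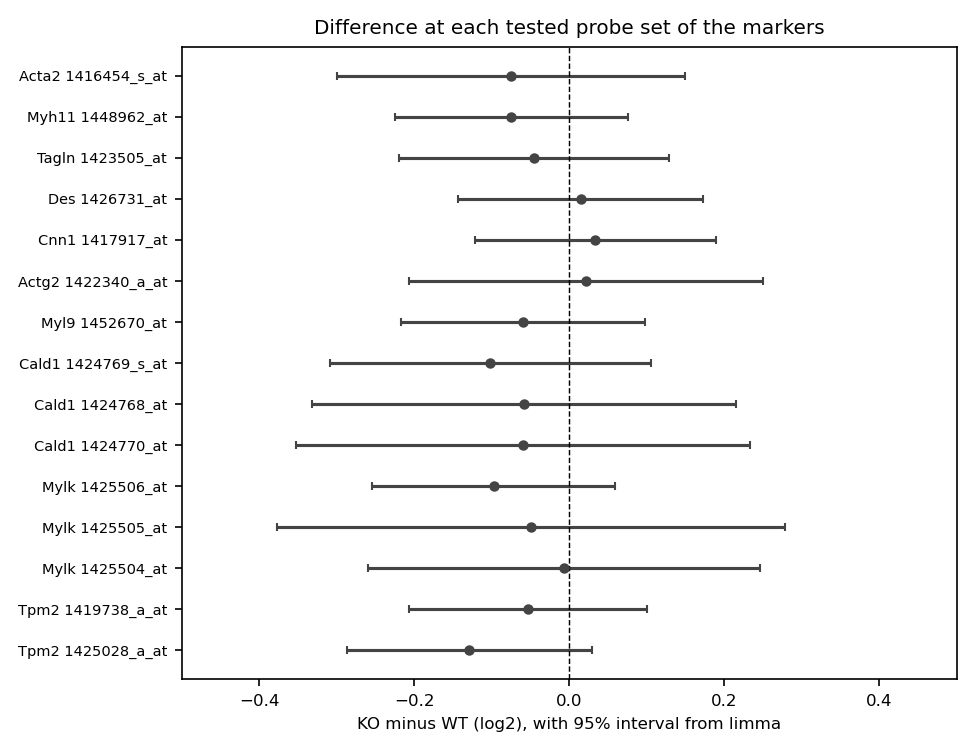
The difference between KO and WT in log2 (x axis) is plotted for each tested probe set of the 10 markers, as a point with its 95% interval from limma. All 15 intervals cross 0, and the points lie between −0.13 and 0.033.

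Acta2 encodes alpha smooth muscle actin, the thin filament protein most often used to stain myoid cells. Its probe set 1416454_s_at read 11.08, 11.45 and 11.39 in WT replicates 1, 2 and 3 and 11.25, 11.26 and 11.19 in the KO replicates. WT replicate 1 was the lowest of the 6 and the other WT testes were the highest, so the KO values lay inside the WT range. The difference was −0.076 ± 0.097 (SE; WT SD 0.20, KO SD 0.039, n = 3 each; limma adjusted p = 0.993). Without WT replicate 1 it was −0.19 (limma adjusted p = 0.375), without WT replicate 2 it was −0.0030 and without WT replicate 3 it was −0.033. By Affymetrix naming, the suffix _s_at marks probes that can match more than 1 transcript or gene, and smooth muscle actins are nearly identical, so this signal may include other actins.

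Actg2 encodes gamma actin of visceral smooth muscle. Its mean of 12.12 was the highest of the markers, and which testis cells gave the signal was not measured. The long non-coding RNA gene Gm38844 overlaps Actg2 in RefSeq. Probe set 1422340_a_at read 11.88, 12.20 and 12.23 in WT and 12.22, 12.10 and 12.05 in KO. WT replicate 1 again stood lowest, and the other values overlapped between genotypes. The difference was 0.021 ± 0.098 (limma adjusted p = 0.999), and its sign turned without WT replicate 1 (−0.091), without KO replicate 1 (−0.028) and after quantile normalization (−0.011).

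**Figure D2:**
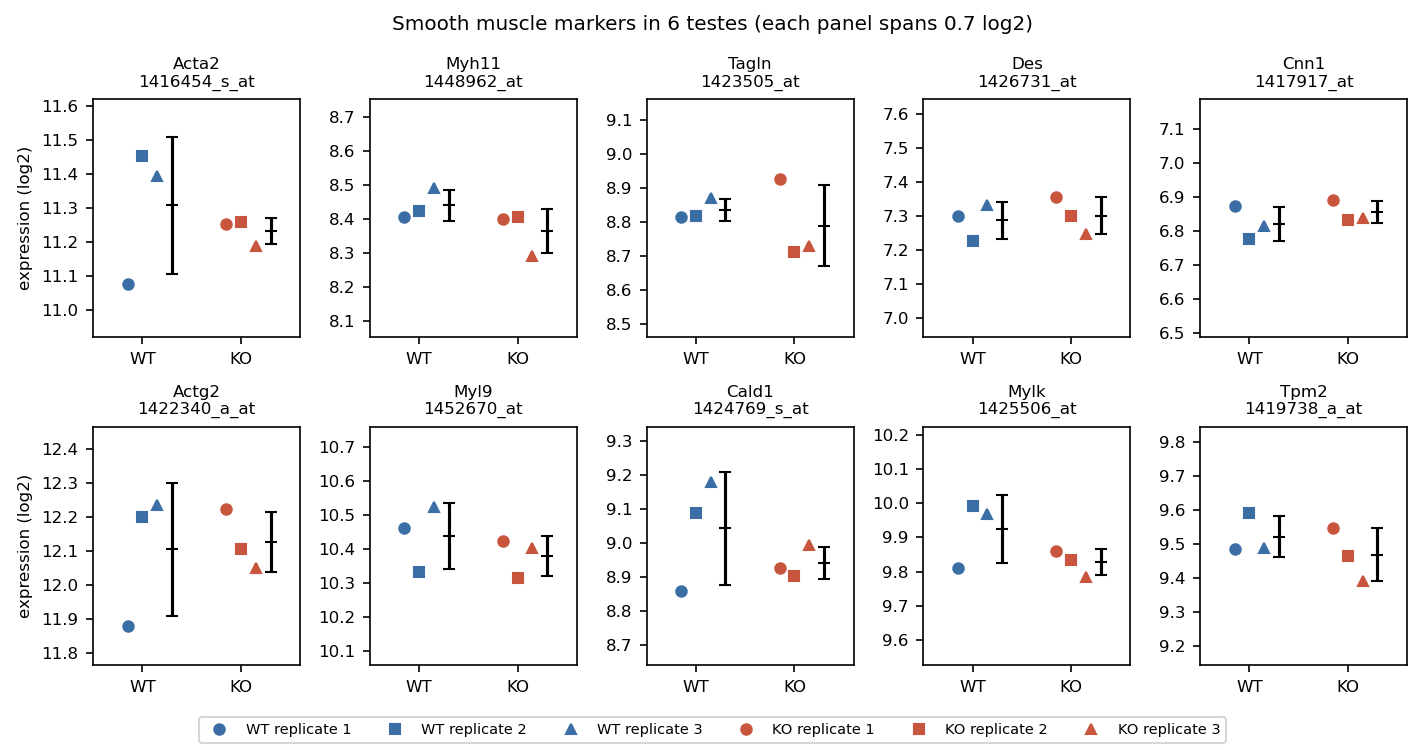
Log2 expression (y axis) of each marker at its probe set with the highest mean is plotted for 3 WT and 3 KO testes. Symbols mark the replicates, black bars show mean ± SD, and every panel spans the same range, so that the low position of WT replicate 1 in Acta2, Actg2 and Cald1 can be seen.

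The thick filament genes varied less. Myh11, the smooth muscle myosin heavy chain and the most restricted marker of differentiated smooth muscle, read 8.41, 8.43 and 8.49 in WT and 8.40, 8.41 and 8.29 in KO at 1448962_at. Of the KO testes, replicate 3 was the lowest of the 6, while the other KO testes lay close to WT replicates 1 and 2. The difference was −0.075 ± 0.065 (limma adjusted p = 0.993). Its second probe set, 1418122_at, was under the filter, at 4.52 to 4.60 in WT and 4.46 to 4.56 in KO.

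Myl9 encodes the regulatory light chain that the kinase phosphorylates. It read 10.46, 10.33 and 10.52 in WT and 10.42, 10.31 and 10.40 in KO at its only probe set. Replicate 2 was the lowest testis within both genotypes, and the groups overlapped. The difference was −0.060 ± 0.068 (limma adjusted p = 0.993).

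The promoters of Acta2 and Myl9 are shown because Myl9 carries a strict CArG box and Acta2 carries CArG-like boxes. RefSeq promoter windows of GRCm38.p6, 250 bases before to 50 after a start site, were found for 7 of the 10 genes (8 windows). The strict CArG box, which is its own reverse complement in pattern, was in 1 of the 8 windows, that of Myl9, and in 1.63% of all 32851. A CArG-like box with 1 G or C in its A/T core, allowed after the strict search had been seen, was in the windows of 2 genes, Acta2 and Myl9, and in 8.5% of all. In the Acta2 stretch (minus strand, chr19:34255368-34255487) the capitals mark CArG-like boxes, 84 to 75 and 34 to 25 bases before the start. In the Myl9 stretch (plus strand, chr2:156775273-156775404) they mark a strict box 161 to 152 bases before the start and a CArG-like box 99 to 90 bases before it.
Acta2: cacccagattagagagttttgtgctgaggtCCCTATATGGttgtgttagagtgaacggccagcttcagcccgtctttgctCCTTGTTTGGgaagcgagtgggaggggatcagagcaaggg
Myl9: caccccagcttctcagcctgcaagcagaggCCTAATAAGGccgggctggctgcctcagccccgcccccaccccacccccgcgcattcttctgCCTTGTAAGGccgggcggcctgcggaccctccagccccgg
The motif CATTCC, the core bound by TEAD factors, was searched on both strands and overlapped neither kind of box. It was in the windows of 3 of the 7 genes (Acta2, Cald1 and Mylk) and in 14.7% of all windows. These matches describe the letters of the windows, and no binding was measured. Distances are counted from the start site that sets each window, and where transcription starts in testis was not measured.

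Mylk encodes myosin light chain kinase, and from an internal start also telokin, a short protein of its C-terminal end. Its 3 tested probe sets did not vary alike. At 1425506_at the values were 9.81, 9.99 and 9.97 in WT and 9.86, 9.84 and 9.78 in KO, a difference of −0.098 ± 0.067 (limma adjusted p = 0.993). WT replicates 2 and 3 lay above all other arrays there, and WT replicate 1 lay among the KO values.

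Probe set 1425505_at showed the same order for WT and a wider gap. It read 8.65, 9.23 and 9.11 in WT and 8.96, 8.99 and 8.89 in KO, a difference of −0.050 ± 0.14 (limma adjusted p = 0.994). Its residual SD of 0.22 stood at the 92.3rd percentile of all tested probe sets, the only one of the 15 above the 90th. At 1425504_at WT replicate 1 was instead the highest array, with 7.15, 6.97 and 6.82 in WT and 7.14, 6.92 and 6.87 in KO, a difference of −0.0069 ± 0.11 (limma adjusted p = 0.999). Over the 6 arrays 1425505_at correlated with 1425506_at at r = 0.83 and with 1425504_at at r = −0.53, as a description over shared arrays. The sources used here do not say which transcript each probe set reads, and 2 long non-coding RNA genes overlap Mylk in RefSeq.

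Cald1 encodes caldesmon, which binds actin and tropomyosin and inhibits the myosin ATPase. The 3 tested probe sets again parted. At 1424769_s_at the values were 8.86, 9.09 and 9.18 in WT and 8.92, 8.90 and 8.99 in KO, which gave the most negative of the 10 per-gene differences, −0.10 ± 0.089 (limma adjusted p = 0.993). The KO values lay between WT replicate 1 and the other WT testes. Without WT replicate 1 the difference was −0.19 (limma adjusted p = 0.437), and without WT replicate 3 it was −0.033.

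The other Cald1 probe sets did not follow it closely. At 1424768_at the values were 7.40, 7.41 and 7.81 in WT and 7.54, 7.52 and 7.39 in KO, with WT replicate 3 alone high. At 1424770_at they were 7.56, 7.29 and 7.32 in WT and 7.09, 7.38 and 7.52 in KO, with KO replicate 1 lowest and WT replicate 1 highest. Both differences were −0.059, with SE of 0.12 and 0.13 (limma adjusted p = 0.994 for each). The pair correlated at r = −0.40 over the 6 arrays. The last 2 probe sets of Cald1 were under the filter, with differences of −0.066 and −0.034. The long non-coding RNA genes Gm13861 and Gm38787 overlap Cald1 in RefSeq.

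**Figure D3:**
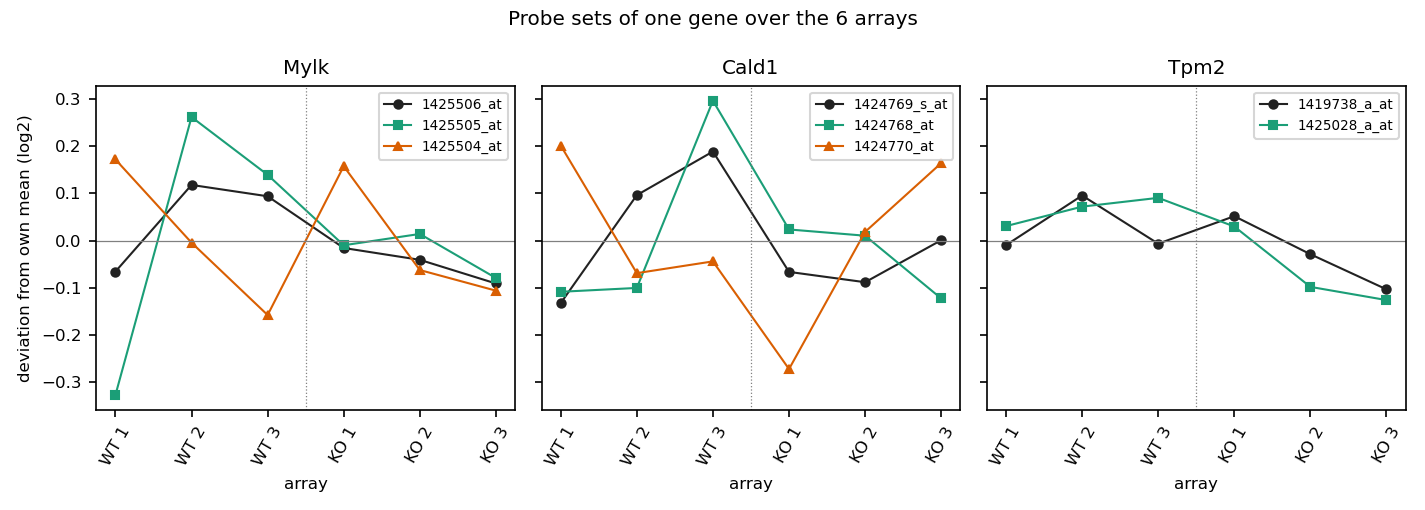
The deviation of each tested probe set from its own mean (y axis, log2) is plotted by array for Mylk, Cald1 and Tpm2, and lines only join the points of a probe set since the arrays have no order. Mylk 1425504_at and Cald1 1424770_at were highest in WT replicate 1, where the other probe sets of Mylk and Cald1 lay below their own means.

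Tpm2 encodes beta-tropomyosin, which runs along the thin filament. Its probe set 1419738_a_at read 9.49, 9.59 and 9.49 in WT and 9.55, 9.47 and 9.39 in KO (−0.053 ± 0.066, limma adjusted p = 0.993), with overlapping groups. At 1425028_a_at the values were 8.002, 8.04 and 8.06 in WT and 8.001, 7.87 and 7.84 in KO. Here every KO testis read lower than every WT testis, but KO replicate 1 and WT replicate 1 were nearly equal. The difference of −0.13 ± 0.068 was the most negative of the 15 and did not pass (limma adjusted p = 0.993). It was the only 1 of the 15 with groups that did not overlap and KO lower, where 3.84% of all tested probe sets had that trait, and 0 of the 15 had KO higher without overlap, against 7.12%. Tpm2 overlaps the protein-coding gene Car9 in RefSeq.

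Among the Tpm2 probe sets under the filter, 1449577_x_at read 5.08, 5.09 and 5.38 in WT and 5.03, 4.81 and 4.85 in KO, which also did not overlap (−0.29, not tested). The other, 1419739_at, was alike in both groups, at 5.26 to 5.35 in WT and 5.26 to 5.41 in KO. By Affymetrix naming, the suffix _x_at marks probes that may read other sequences.

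Cnn1 encodes calponin, an actin-binding inhibitor of smooth muscle contraction, and it varied least of the 10 genes. It read 6.87, 6.78 and 6.81 in WT and 6.89, 6.83 and 6.84 in KO, a difference of 0.033 ± 0.067 (limma adjusted p = 0.994). The residual SD of 0.042 stood at the 7.43rd percentile of all tested probe sets. All 6 testes lay within 0.12.

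Tagln encodes transgelin (SM22 alpha), an actin-binding protein and early marker of the smooth muscle lineage. It read 8.82, 8.82 and 8.87 in WT and 8.93, 8.71 and 8.73 in KO (−0.046 ± 0.075, limma adjusted p = 0.993). KO replicate 1 was the highest of the 6 testes and the other KO testes were the lowest, the reverse of the Acta2 layout, where the WT testes took both ends. Tagln overlaps Pcsk7 in RefSeq.

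Des encodes desmin, the muscle intermediate filament, which ties contractile units together. Probe set 1426731_at read 7.30, 7.23 and 7.33 in WT and 7.36, 7.30 and 7.25 in KO (0.014 ± 0.068, limma adjusted p = 0.999), with a full range of 0.13. Its sign turned without WT replicate 2 or KO replicate 1 (−0.015 and −0.013). The second probe set, 1426732_at, was under the filter and read 5.45, 5.65 and 5.07 in WT and 5.14, 5.24 and 4.99 in KO. Its groups overlapped (−0.27, not tested). The long non-coding RNA gene Gm15179 overlaps Des in RefSeq.

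The last probe sets under the filter belong to Acta2, and they went opposite ways. At 1456658_at all KO values (4.67, 4.86 and 4.66) lay above all WT values (4.43, 4.43 and 4.56), a difference of 0.26. At 1444105_at, with 4.25, 4.002 and 4.72 in WT and 4.44, 4.13 and 4.02 in KO, it was −0.13 with overlap. Of the 8 probe sets under the filter, this 1 had KO higher without overlap, against 4.64% of all 18015 under the filter, and the 1 of Tpm2 had KO lower without overlap, against 4.76%. Neither was tested.

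Spread between testes of one genotype differed from marker to marker. The residual SD within genotypes was above the median of all tested probe sets for 7 of the 15 and below it for the rest. Over the 10 genes its median percentile was 32.9. Acta2 and Actg2 stood at the 75.0th and 77.4th percentiles (residual SD 0.15 each), Myh11 and Des at the 15.8th and 14.8th (0.056 and 0.054). In Acta2, Actg2 and Cald1 the larger spread was in WT, with WT replicate 1 the lowest array of the 6.

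Several markers shared their order over the arrays. Each gene was centred on its own mean, and the mean over the 10 genes was −0.053 in WT replicate 1, 0.040 in WT replicate 2 and 0.080 in WT replicate 3, then 0.030, −0.037 and −0.059 in KO replicates 1, 2 and 3. WT replicate 3 was the highest array for 4 of the 10 genes and the lowest for 0, while KO replicate 3 was the lowest for 3 and the highest for 0. In WT replicate 1 the centred median over all measured genes was also low, at −0.027, against 0.0020 to 0.013 in the other arrays. After quantile normalization the marker mean in WT replicate 1 was −0.0053, while WT replicate 3 (0.062) and KO replicate 3 (−0.071) kept the ends. Of the 45 pairs of genes 33 had a positive correlation over the 6 arrays, with a median r of 0.43. Against the mean of the other 9, Mylk had the highest r (0.85), followed by Actg2 (0.75), Acta2 and Myh11 (0.71 each), Cald1 (0.66), Tagln (0.63) and Tpm2 (0.56). Des and Myl9 were lower (0.23 and 0.21), and Cnn1, the gene with the lowest level, ran against the rest (−0.44). These values describe 6 shared arrays and carry no test.

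The non-member genes most like the mean of the markers over the 6 arrays were Cpt2, Tbl1x, Iqgap1, Zfp385b and Vps11, with Pearson r from 0.981 to 0.997 among 13887 genes compared. Their own ranges over the arrays were 0.095 to 0.25 log2. With 6 arrays and this many genes, such values are a description only.

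**Figure D4:**
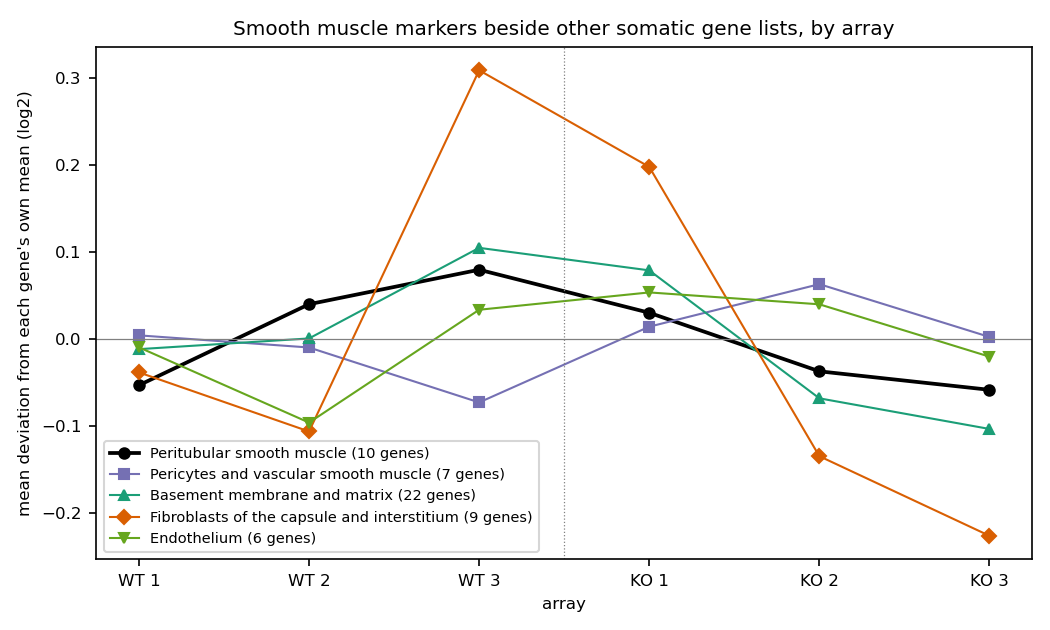
The mean deviation of each gene list from its genes' own means (y axis, log2) is plotted by array for the 10 smooth muscle markers and 4 other somatic lists, and lines only join the points of a list. Smooth muscle, matrix and fibroblast lists were highest in WT replicate 3 and lowest in KO replicate 3, while the pericyte list was lowest in WT replicate 3. For the fibroblast list this low end rested on Mfap5.

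The means of the fibroblast and matrix lists shared their highest and lowest array with the marker mean, but not the whole order. In WT replicate 2 the marker mean was 0.040 and the fibroblast mean was −0.11. The 9 tested fibroblast genes of the capsule and interstitium averaged 0.31 above their own means in WT replicate 3 and 0.20 above in KO replicate 1. They stood at −0.039 and −0.11 in WT replicates 1 and 2 and at −0.14 and −0.23 in KO replicates 2 and 3. Their mean level ran from 8.21 to 8.63 in WT and from 8.09 to 8.52 in KO, and only Dpt of the 10 lay under the filter. Of the 9, 5 were lower and 4 higher in KO and 0 passed (limma). For 2 the unadjusted p was under 0.05 (limma), against 5.11% of all tested probe sets. Mfap5, the gene of a microfibril protein, read 8.55, 8.52 and 8.64 in WT and 8.08, 8.04 and 7.15 in KO (−0.81 ± 0.23, limma adjusted p = 0.863). Every KO value lay below every WT value, where 3.84% of all tested probe sets had that trait. Its value of 7.15 in KO replicate 3 lay far below its own mean of 8.16. The place of KO replicate 3 as the lowest array of the fibroblast list rested on this gene. Lum, the gene of the collagen-binding proteoglycan lumican, differed by −0.37 ± 0.15 (limma adjusted p = 0.932), and its groups overlapped. The 22 tested genes of basement membrane and matrix had the same ends, 0.10 in WT replicate 3 and −0.10 in KO replicate 3. Col1a1, Col1a2, Col3a1, Dcn and Lum are in both lists. The part of connective tissue in the order of the markers was not tested.

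Pericyte and vascular smooth muscle genes took another order. Their 7 tested genes stood at −0.073 in WT replicate 3, where the markers were highest, and at 0.063 in KO replicate 2. Their mean level ran from 6.97 to 7.05 in WT and from 7.04 to 7.10 in KO, with Notch3 and Higd1b under the filter. Of the 7, 3 were lower and 4 higher in KO and 0 passed (limma). For 2 the unadjusted p was under 0.05 (limma), against 5.11% of all tested probe sets. They were Abcc9 (0.18 ± 0.069, limma adjusted p = 0.932) and the pericyte gene Rgs5 (0.21 ± 0.088, limma adjusted p = 0.973). The 6 tested endothelial genes had a median difference of 0.041, with mean levels of 7.35 to 7.48 in WT and 7.42 to 7.50 in KO. Pecam1, Tek, Emcn and Tie1 lay under the filter.

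Striated muscle of the cremaster, which also makes desmin, was checked by its own markers. Of its 11 genes, 6 lay under the filter (Acta1, Myh1, Myh2, Myh4, Tnnt3 and Mylpf) and 5 above it (Actn3, Tnni2, Ckm, Mb and Tnnc2). The tested 5 averaged 6.88 to 7.03 in WT and 6.84 to 6.99 in KO. The epididymis, which has a coat of smooth muscle, had 4 of its 8 genes on the array under the filter (Lcn5, Lcn9, Adam7 and Cst11). Of these, Adam7 read 6.78 in KO replicate 2 and 5.94 in WT replicate 1, against 5.01 to 5.17 in the other arrays. The centred mean of the tested epididymis genes was instead lowest in KO replicate 2 (−0.23). The 4 tested averaged 8.35 to 8.60 in WT and 8.12 to 8.33 in KO with a median difference of −0.17. They include Spink2, a gene that germ cells also express, whose mean of 13.07 lifted these averages. Means of the other genes were 7.69 (Rnase10), 6.62 (Defb15) and 6.03 (Lcn8). Rnase10 had the smallest p of these (−0.70 ± 0.24, limma adjusted p = 0.869). The mean of the 3 tested adipose genes varied most between arrays, from −0.60 in WT replicate 2 to 1.09 in KO replicate 2. Their mean levels were 7.25 to 8.23 in WT and 7.65 to 8.94 in KO. Most of that spread came from Fabp4, which read 5.77 in WT replicate 2 and 9.80 in KO replicate 2. Its range was 4.03 log2, against 0.72 for Retn and 0.38 for Adipoq. Cidec and Lep lay under the filter. The part of adhering tissue in the values of the markers was not tested.

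No gene of the wider contractile program passed either. Of 19 tested genes of the contractile apparatus and cytoskeleton, such as the tropomyosin Tpm1 and the actin-binding smoothelin Smtn, 8 were lower and 11 higher. Their median was 0.017, and 0 passed the threshold (limma). An unadjusted p under 0.05 was seen for 1 (limma), against 5.11% of all tested probe sets. That 1 was Tagln2, a relative of Tagln that is not restricted to muscle. It read 6.79, 6.72 and 6.82 in WT and 7.02, 7.11 and 6.86 in KO (0.22 ± 0.083, limma adjusted p = 0.922). All KO values lay above all WT values, a trait of 7.12% of all tested probe sets. Of 10 tested genes of contraction signalling 3 were lower and 7 higher and 0 passed (limma, 0 at an unadjusted p under 0.05). Phospholamban (Pln), which restrains the calcium pump of the sarcoplasmic reticulum, had the smallest p there (0.14 ± 0.065, limma adjusted p = 0.993).

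Transcription regulators of the program were measured beside their targets. Srf, the factor that binds the CArG box, read 9.14, 9.16 and 9.19 in WT and 9.34, 9.32 and 9.16 in KO (0.11 ± 0.068, limma adjusted p = 0.993), with KO replicate 3 inside the WT range. Its partner gene Mrtfb had the smallest p of this list (0.13 ± 0.070, limma adjusted p = 0.993). Of the 10 regulators tested 4 were lower and 6 higher and 0 passed (limma, 0 at an unadjusted p under 0.05).

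Matrix and signalling genes of the tubule wall held some larger differences, without passing. Of 22 tested matrix genes 13 were lower and 9 higher, with a median of −0.016, and 0 passed (limma). An unadjusted p under 0.05 was seen for 3 (limma), against 5.11% of all tested probe sets. The basement membrane linker Nid2 had the smallest p (−0.65 ± 0.096, limma adjusted p = 0.158). It read 7.52, 7.74 and 7.60 in WT and 7.13, 6.88 and 6.89 in KO, with every KO value below every WT value. Of the 22, 2 had KO lower without overlap and 0 had KO higher, against 3.84% and 7.12% of all tested probe sets. Of 8 tested signals of peritubular cells 3 were lower and 5 higher, and 0 passed (limma). For 1, against the same 5.11%, the unadjusted p was under 0.05 (limma). That 1 was Cxcl12, a chemokine that acts on CXCR4-bearing cells. It read 8.37, 8.13 and 8.48 in WT and 8.74, 8.49 and 8.86 in KO (0.38 ± 0.12, limma adjusted p = 0.863). Every KO value lay above every WT value, a trait of 7.12% of all tested probe sets.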

How the data were processed

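For 6 arrays the authors deposited normalized values, read as log2 from their range (2.61 to 15.00 over 45101 probe sets). The submitters' processing notes name GCOS 1.4. How background was corrected, probes summarised and arrays normalized is not stated in them. No detection call was used, so the height of a signal over background is unknown. Groups follow the genotype in the sample titles, which name biological replicates.

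After removal of 64 control probe sets, the upper 60% by mean level was kept (27022). The comparison of KO with WT used limma 3.58.1 under R 4.3.3 (lmFit, then eBayes with trend, two-sided tests), with Benjamini-Hochberg adjustment over all kept probe sets at 0.05. The pipeline was tested on simulated data. Gene names came from the platform annotation (34945 probe sets with 1 gene, 932 with several, 9160 with none), and a RefSeq table of GRCm38.p6 gave newer symbols and overlapping genes. Members and lists were chosen with earlier results of these data known. Named genes were all members, then from each of the 5 lists of contractile, regulatory, matrix and signal genes those that passed or the one with the smallest p, from the cell type lists the markers needed to check a tissue, and the 5 genes nearest in pattern. Abcc9, Rgs5, Mfap5, Lum, Rnase10, Lcn8, Adam7, Defb15, Fabp4, Retn, Adipoq, Srf, Tpm1 and Smtn fall outside this rule and were named after their values were seen. Motif searches were run with Python 3.11.15 and figures drawn with matplotlib 3.10.9.

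With 3 arrays per group the median standard error of a difference was 0.082 log2, which is the limit of precision. Alternatives covered quantile normalization, the level filter, a replicate block, variance moderation, array weights, the choice of probe set and leaving out arrays.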

Additional observations from a re-analysis of the deposited data

How the results depend on the processing

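No marker passed the threshold under any of the 14 alternative fits (0 of 10 genes in each, or 0 of 8 in the upper 40% of probe sets by mean, where Des and Cnn1 were not kept), and the lowest limma adjusted p of a member was 0.283, with array weights. Of 210 alternative values 189 kept their direction, and 9 of the 15 probe sets kept it throughout. For Cald1, Mylk and Tpm2 the 210 include the mean of their tested probe sets. Level filters, the replicate block and fits without intensity trend or moderation cannot change a difference. Their values were the same in advance and say nothing about stability. With array weights Des (−0.012), Actg2 (−0.079), Cald1 1424770_at (0.015) and Mylk 1425504_at (0.080) turned sign, as did Actg2 with quantile normalization (−0.011). With WT replicates 1 and 2 both left out, so that the lone WT array is assumed to vary like the KO arrays, the same 4 did, at −0.031, −0.11, 0.014 and 0.15, and the median over the members moved from −0.057 to −0.12. Leaving out 1 array at a time gave from −0.19 to −0.0030 for Acta2, −0.19 to −0.033 for Cald1 1424769_s_at, −0.091 to 0.086 for Actg2, −0.015 to 0.041 for Des, −0.128 to 0.075 for Cald1 1424768_at, −0.156 to 0.062 for Cald1 1424770_at, −0.23 to 0.069 for Mylk 1425505_at and −0.087 to 0.077 for Mylk 1425504_at. The median over the members then ran from −0.089 to −0.027. The cause of these changes was not tested.

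Under the replicate block 0 genes passed and the lowest limma adjusted p of a member was 0.945. The median stayed at −0.057, since every replicate number is held by a WT and a KO array and the block cannot change a difference. Same-numbered WT and KO arrays deviated together at r = 0.22, −0.024 and 0.096, so the numbers were not taken as pairs. Over all tested probe sets the block gave 9 calls against 11. Without WT replicates 1, 2 and 3 in turn the count was 12, 9 and 4. Without KO replicates 1, 2 and 3 in turn it was 6, 9 and 2. It was 12 with quantile normalization, 14 without a level filter and 7 in the upper 40% of probe sets by mean. Array weights gave 46 calls, a fit without intensity trend 9 and a fit without moderation 0.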
